A study of Homo sapiens with 9 samples.

Results

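The comparison set U251 cells exposed to the higher dose of temozolomide (1500 µM in the sample titles) against untreated U251 cells (0 µM) in a pooled sgRNA screen, with libraries paired by replicate number. Its members were the guides that reached 10 counts in 3 or more of the series' 9 libraries, and 10337 of the 11170 guides in the table met that rule. It used 6 of the 9 libraries, replicates 1, 2 and 3 of each group. The other 3, at 200 µM, entered only the filter on low counts and an alternative fit. U251 is an established human glioma line. Cells of both groups stably carried sgRNAs and were grown in serum-containing DMEM, and the treated cells received temozolomide for 72 hours before DNA was isolated. The treatment protocol gives the doses in nM where the titles give µM, so the unit is not settled and 0 and 1500 µM serve here as group names. Neither the nuclease, its promoter nor the interval between infection and treatment is stated in the labels. They also do not say that different replicate numbers mark separate cultures, so p-values measure a spread between libraries that may be technical. Guide counts carry no expression, so the line could not be checked against marker genes. No plasmid pool or library from before treatment was analysed here, and losses before treatment could not be separated from poor representation in the pool.

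Temozolomide is an oral alkylating drug for glioma that methylates DNA, above all at guanine. An O6-methylguanine that is not removed mispairs in replication, engages mismatch repair and leads to breaks, checkpoint arrest and death over more than a single cell cycle. The screen's genes belong mostly to the ubiquitin system, in which E1 enzymes activate ubiquitin or a related protein, E2 enzymes carry it, and E3 ligases place it on a substrate that may then be degraded by the proteasome. In a pooled screen the count of a guide stands for the number of cells that carry it: a guide to a gene needed under the drug becomes rarer, and one to a gene that limits growth or survival becomes more common. The count says nothing about whether that guide cut its target. FBXO5 and DOK6 stand in the title of the series: the former holds back the anaphase-promoting complex, and the latter is an adaptor in receptor tyrosine kinase signalling. DOK6, the direct repair enzyme MGMT and the glycosylase MPG were not analysed here.

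The library held 10 guides for each of 1117 genes. In replicates 1, 2 and 3, the untreated libraries totalled 1852954, 2309361 and 1852340 counts and the treated ones 2790563, 2544275 and 2111335, a mean of 166 to 250 counts per guide. Of the tested guides, 7184 (69.5%) had at least 10 counts in all 6 libraries. The filter also kept 119 guides that were below 10 counts in every untreated library and 52 that were below 10 in every treated library. All 10 guides passed for 687 genes, and 6 genes had fewer than 3. The 833 guides left out included 194 at 0 in all 6 libraries. Some of the others had counts above 10 in a single library. CAND2.6, a guide to a cullin regulator, had 5, 0 and 0 counts at 0 µM and 115, 0 and 0 at 1500 µM. At the edge of the rule lay 52 guides whose third-highest count over the 9 libraries was 10, with a median of 41.5 counts over the 6 libraries, and 44 guides at 9, with a median of 46.

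Libraries with the same replicate number resembled each other far more than libraries with the same dose. Levels, as log2 CPM (counts scaled to one library size), correlated across guides at 0.82, 0.89 and 0.83 between the treated and untreated library of replicates 1, 2 and 3. Between libraries of one dose the correlation was 0.40 to 0.49. Of the 100 most abundant guides, 48, 74 and 66 were shared within the pairs of replicates 1, 2 and 3, against 4 to 9 between libraries of one dose. Many guides were abundant in a single pair. PARK7.10, a guide to the Parkinson disease protein DJ-1, had 54, 6075 and 153 counts at 0 µM and 123, 5471 and 102 at 1500 µM. UBE2V2.2, which targets a partner of the E2 enzyme UBE2N, had 10, 4 and 5271 counts at 0 µM and 48, 15 and 6004 at 1500 µM. MDM2.1, a guide to the p53 ligase, had 4726, 191 and 62 counts at 0 µM and 6620, 296 and 149 at 1500 µM. Each of these guides was abundant in the same pair at both doses and scarce in the others. With the replicate number in the model, the biological coefficient of variation of the guides was 0.548, and without it 1.07.

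The change from 0 to 1500 µM was not shared between pairs for most guides. The log2 ratio of treated to untreated CPM (with 1 added to each) had a standard deviation over guides of 1.39, 1.08 and 1.20 in pairs 1, 2 and 3. These ratios correlated between pairs at 0.001, 0.036 and 0.041 across guides, which are not independent replicates. At least 2-fold higher counts were seen for 16.8%, 12.6% and 14.6% of guides in pairs 1, 2 and 3, and at least 2-fold lower counts for 17.2%, 11.7% and 13.2%. A change of at least 2-fold in some pair was seen for 6212 guides (60.1%), but in all 3 pairs in the same direction for only 67 higher (0.648%) and 59 lower (0.571%). Opposite 2-fold changes in different pairs were seen for 1195 guides (11.6%). The spread was widest among scarce guides. In the 2585 guides with the lowest mean level the standard deviation was 2.01, 1.57 and 1.83 in the 3 pairs, and in the 2584 with the highest it was 0.83, 0.59 and 0.61.

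A single guide stood out in every treated library. UBE2A.7 targets UBE2A, also known as RAD6A, the E2 enzyme that works with the ligase RAD18 at stalled replication forks and with RNF20 and RNF40 on histone H2B. It had 2879, 26200 and 6805 counts at 0 µM and 169519, 472612 and 104875 counts at 1500 µM in replicates 1, 2 and 3. Every treated library was above every untreated one. At 1500 µM it was the most abundant guide in each library and took 6.07%, 18.6% and 4.97% of all counts, and at 0 µM it was already the most abundant in replicates 2 and 3, with 1.13% and 0.367%. The exact Clopper-Pearson 95% intervals of the treated shares were 6.05% to 6.10%, 18.5% to 18.6% and 4.94% to 5.0%, and they cover counting error only. At 200 µM its counts were 5980, 15206 and 63921. The paired ratios were 34.0-fold, 17.6-fold and 13.1-fold, and the edgeR estimate with replicate as a block was 4.31 ± 0.67 (log2, SE, n = 3 pairs).

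That guide was not called by the main guide test, and neither was any other. In edgeR's quasi-likelihood test with the replicate block, 0 of 10337 guides passed an adjusted p of 0.05 in either direction (0%), and the lowest adjusted p was 0.999. At an unadjusted p under 0.05 there were 270 guides (2.61%), 86 higher (0.832%) and 184 lower (1.78%). DESeq2 with the same block called 6 guides, 3 higher (0.029%) and 3 lower (0.029%), with 483 (4.67%) at an unadjusted p under 0.05 (1.55% higher and 3.12% lower). The method limma-voom also called 6, of which 2 were higher (0.0193%) and 4 lower (0.0387%), with 796 (7.7%) at an unadjusted p under 0.05 (1.3% higher and 6.4% lower). UBE2A.7, EP300.4 and PELI3.10 were called by both. For UBE2A.7 the DESeq2 adjusted p was 4.11e-42, and it stayed below the threshold with each pair left out. Leaving out pairs in DESeq2 was chosen after seeing the data. It gave 72 called guides of 10303 without replicate 1, of which 10 were higher and 62 lower. Without replicate 2 there were 3 of 10277 (2 higher and 1 lower), and without replicate 3 there were 5 of 10289 (3 higher and 2 lower).

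The other guides called higher by DESeq2 targeted DCUN1D1 and EP300. DCUN1D1 is a co-ligase that helps to attach NEDD8 to cullins, and EP300 is a histone acetyltransferase and transcriptional coactivator. DCUN1D1.3 had 2586, 1964 and 6359 counts at 0 µM and 86558, 20435 and 14329 at 1500 µM, with log2 ratios of 4.27, 3.34 and 0.94. The groups did not overlap, but the ratio in replicate 3 was far smaller, and the DESeq2 adjusted p of 0.000168 became 0.50 without replicate 1. EP300.4 had 4099, 3680 and 4633 counts at 0 µM and 29490, 13108 and 10908 at 1500 µM, with log2 ratios of 2.05, 1.80 and 1.00. Its groups also did not overlap, and its DESeq2 adjusted p was 1.66e-05, or 0.185 without replicate 2. Its counts at 200 µM were 8474, 8086 and 14907. These 3 guides were also among the 10 most abundant at 1500 µM. Over all tested guides, 138 (1.34%) did not overlap between the groups with the treated libraries higher, and 138 (1.34%) with them lower.

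The other guides of these genes had ratios on both sides of 0. The median log2 ratio over the 10 tested guides of EP300 was -0.14 ± 0.15 (SE, n = 3 pairs), and over the 7 of DCUN1D1 it was 0.10 ± 0.14. For UBE2A, the 9 tested guides had a median of 0.18 ± 0.11. UBE2A.6 had 453, 327 and 358 counts at 0 µM and 102, 198 and 405 at 1500 µM, with log2 ratios of -2.91, -0.75 and -0.06. UBE2A.1 went the other way, with 221, 163 and 100 counts at 0 µM and 857, 203 and 168 at 1500 µM, or 1.16, 0.28 and 0.50. UBE2A.5, with 163, 1029 and 359 counts against 308, 1379 and 435, had log2 ratios of 0.13, 0.39 and 0.04. Of the tested UBE2A guides, 3 were higher in all 3 pairs and 1 lower. XIAP.8, a guide to an inhibitor of caspases, was the most abundant of all in untreated replicate 1, with 2.51% of its counts. It had 46599, 718 and 466 counts at 0 µM and 1323, 2526 and 3641 at 1500 µM, so that it moved down in the first pair and up in the others.

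Below these came guides of moderate abundance that were higher in every pair, none of which passed a test. UBE4A.2, a guide to a ubiquitin chain-elongating ligase, had 281, 123 and 287 counts at 0 µM and 946, 283 and 584 at 1500 µM, and the edgeR estimate was 0.97 ± 0.30 (log2, SE). DNAJC2.10, which targets a ribosome-associated chaperone, had 14, 33 and 101 counts against 175, 119 and 271, with no overlap between the groups and an estimate of 1.92 ± 0.56. RFWD2.10, a guide to the p53 ligase COP1, had 57, 27 and 104 counts against 374, 74 and 252, with overlapping groups. PINK1.5, against the kinase that marks damaged mitochondria, had 19, 397 and 15 counts against 113, 686 and 74. In the last of these the differences between pairs exceeded the difference between doses. RNF187.8 and DCAF12.10, also among the 10 of lowest p, had estimates of 1.38 and 1.17.

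Among the guides that were lower, TRIB2.6 had the lowest p. TRIB2 is a pseudokinase that brings substrates to the ligase COP1. TRIB2.6 had 633, 463 and 133 counts at 0 µM and 271, 146 and 39 at 1500 µM, and its ratios of 0.25-fold, 0.31-fold and 0.26-fold were nearly equal in the 3 pairs. Its groups overlapped, because the untreated library of replicate 3 was below 2 of the treated ones. The edgeR estimate was -1.90 ± 0.32 (log2, SE), with an unadjusted p of 0.000527, and DESeq2 gave an adjusted p of 0.00108. PELI3.10, a guide to a Pellino ligase of innate immune signalling, had 1196, 63 and 39 counts against 99, 20 and 8, and its ratio was smallest in replicate 1. TRIM45.10, against a tripartite-motif ligase, had 1585, 93 and 1592 counts against 1339, 35 and 730. In DESeq2, TRIB2.6 and TRIM45.10 were no longer called without replicate 2 or without replicate 3, and PELI3.10 without replicate 1 or 3.

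A further 3 of the 10 guides with the lowest p in this direction did not overlap between groups. TRAF3.10, a guide to an adaptor and ligase that restrains non-canonical NF-kB signalling, had 909, 558 and 821 counts at 0 µM and 348, 240 and 453 at 1500 µM, with log2 ratios of -2.17, -1.25 and -1.09. SUGT1.9, against a chaperone partner of SKP1, had 113, 350 and 238 counts against 66, 74 and 95. SENP3.8, against a SUMO protease, had 205, 535 and 412 counts against 153, 146 and 234. EED.6, against a core subunit of Polycomb repressive complex 2, had 281, 298 and 1616 counts against 118, 150 and 774. It was lower in every pair, but its groups overlapped because of the high level of replicate 3. FBXL15.9, WWTR1.1 and RNF139.7 completed the 10, and all of them had an edgeR adjusted p of 0.999. RNF139.7 shows the weakest footing, since its counts were 0, 3217 and 7 at 0 µM and 0, 667 and 0 at 1500 µM. The voom calls RNF139.7, NFE2L2.4 and UBR2.6 each rested on a guide abundant in a single pair, and NFE2L2.4 had 2876, 0 and 34 counts at 0 µM and 575, 4 and 27 at 1500 µM.

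Counts summed over the 10 guides of a gene gave a single call. UBE2A rose, from 4999, 28434 and 8989 summed counts at 0 µM to 173229, 475144 and 107358 at 1500 µM. Its log2 fold change was 4.05 ± 0.56 (SE, n = 3 pairs), with an adjusted p of 0.00518 in edgeR's quasi-likelihood test with the replicate block. That made 1 gene higher (0.0895%) and 0 lower (0%) of 1117, with 74 (6.62%) at an unadjusted p under 0.05 (2.86% higher and 3.76% lower). DESeq2 with the block called 3, of which 2 were higher (0.179%) and 1 lower (0.0895%), with 74 (6.62%) at an unadjusted p under 0.05 (2.6% higher and 4.03% lower). Sums were higher in all 3 pairs for 163 genes (14.6%) and lower for 119 (10.7%). The call rested on UBE2A.7. Without that guide the summed counts were 2120, 2234 and 2184 at 0 µM and 3710, 2532 and 2483 at 1500 µM, the log2 fold change was 0.18 and the adjusted p was 0.825. In edgeR the call was also lost without replicate 2 (log2 fold change 3.98, adjusted p = 0.769), without the replicate block (4.09, adjusted p = 1.00) and with all 9 libraries in the fit (4.17, adjusted p = 0.230), where the fold change was about as large. DESeq2 with the block called UBE2A with all pairs and with each pair left out, and DESeq2 without the block also called it (adjusted p = 3.95e-07).

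TRAF3, with the next lowest adjusted p, had lower values in most of its guides. Its summed counts were 3229, 7251 and 2057 at 0 µM and 2152, 3103 and 1648 at 1500 µM, and after scaling for library size every pair was lower, by log2 ratios of -1.17, -1.12 and -0.46. The levels of the groups overlapped. The log2 fold change was -0.92 ± 0.18 (SE, n = 3 pairs) with an edgeR adjusted p of 0.0786, and so it did not pass. It passed in edgeR with all 9 libraries (adjusted p = 0.0154) and without replicate 1 (0.00211), but not without replicate 2 (0.740) or replicate 3 (0.102). DESeq2 with the block called TRAF3 with all pairs (adjusted p = 0.000338). That call held without replicate 1 (0.0240) and without replicate 3 (0.00112), but not without replicate 2 (0.999). Of its 10 guides, all tested, 9 were lower on average over the pairs and 3 in every pair. Having 3 guides lower in every pair was not rare. Of the 1111 genes with at least 3 tested guides, 84 had exactly 3 such guides and 37 exactly 4. Over all tested guides, 13.2% were lower in every pair. TRAF3.5 had 412, 226 and 216 counts against 201, 98 and 164, and TRAF3.6 had 139, 92 and 108 against 198, 48 and 99. The exception was TRAF3.4, with 21, 420 and 64 counts against 92, 235 and 76. Its abundant guides TRAF3.1 and TRAF3.3 were lower in replicates 2 and 3 and higher in replicate 1, where they had 29 and 49 untreated counts. EP300 and UBE2A were the other genes that DESeq2 with the block called. EP300 had 5573, 5009 and 5925 summed counts at 0 µM and 31880, 14202 and 12433 at 1500 µM, most of them from EP300.4, and it was not refitted without that guide.

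The median over a gene's tested guides, which a single abundant guide cannot set, was compared for the 1111 genes with at least 3 of them. No gene passed in either direction (0%) in limma, where the lowest adjusted p was 0.375. At an unadjusted p under 0.05 there were 84 genes (7.56%), 35 higher (3.15%) and 49 lower (4.41%). Higher medians in all 3 pairs were found for 133 genes (12%) and lower ones for 160 (14.4%). The mean of guides in place of the median called TRAF3 alone, with an adjusted p of 0.0370 in limma. The SE given with a gene's median is limma's moderated one, which draws on all genes. It is not the SE of that gene's own pairs and can be narrower or wider. The SD over the pairs was 1.32 for HUWE1 (SE 0.47), 0.70 for TRAF2 (SE 0.23) and 0.13 for TADA2B (SE 0.16).

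Among the 10 genes with the lowest p and a lower median, EED came first. Its median was -0.72 ± 0.16 (log2, SE, n = 3 pairs), with -0.78, -0.95 and -0.42 in the pairs. All 9 of the tested EED guides were lower on average, and 4 in every pair. EED.8 had 2896, 499 and 603 counts at 0 µM and 2914, 229 and 530 at 1500 µM. TADA2B, an adaptor of the acetyltransferase module of the coactivator SAGA, was at -0.59 ± 0.16, with -0.70, -0.45 and -0.61. USP22, the deubiquitinase of SAGA, was at -0.55 ± 0.15, with -0.77, -0.46 and -0.43. In both genes the pairs lay close together, and 5 and 4 guides were lower in every pair. Among the genes with a median, 37 had exactly 4 guides lower in every pair and 6 had exactly 5. FOXL2, a forkhead transcription factor, was at -0.64 ± 0.18, and KEAP1, the adaptor that directs NRF2 to degradation, at -0.45 ± 0.13. UBE2D1, an E2 enzyme, was at -0.62 ± 0.18, and PSMA4, a proteasome core subunit with 4 tested guides, at -0.80 ± 0.22. For each of these genes the limma adjusted p lay between 0.375 and 0.581.

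Among the 10 genes with the lowest p and a higher median, MED31 came first. It encodes a subunit of Mediator, which links transcription factors to RNA polymerase II. MED31 was at 0.90 ± 0.19 (log2, SE, n = 3 pairs), with 1.48, 0.55 and 0.66, but only 5 of its guides were tested. MED31.4 had 19, 166 and 21 counts at 0 µM and 106, 251 and 132 at 1500 µM, while MED31.5, with 510, 36 and 56 against 309, 81 and 95, was lower in the first pair. The summed counts of MED31 had a log2 fold change of 0.11 ± 0.23. MED6 was at 0.72 ± 0.21 with 7 tested guides. TRIP12, a HECT ligase, was at 0.59 ± 0.20, KLHL10 at 0.53 ± 0.18, SASH1 at 0.53 ± 0.18, PSMA6 at 0.52 ± 0.16, RHOBTB3 at 0.52 ± 0.19 and UBE2D4 at 0.38 ± 0.14. The highest median of all was that of HUWE1, a large HECT ligase, at 1.25 ± 0.47 with 0.00, 1.12 and 2.63, and it was set by scarce guides. HUWE1.1 had 5, 0 and 0 counts against 77, 3 and 28, and HUWE1.8 had 3, 0 and 6 against 33, 25 and 56. Scarce guides like HUWE1.8 stayed below 10 counts at 0 µM and could meet the filter only through libraries given the drug. The filter thus favours positive ratios among them, and the HUWE1 median cannot be read as an effect of the drug. The more abundant HUWE1.9 had 49, 148 and 97 counts against 0, 41 and 11. With a minimum of 50 counts the median of HUWE1 was -0.88.

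FBXO5, which the series title names, was thinly represented. Only 4 of its 10 guides passed the filter, and its summed counts were 20, 243 and 62 at 0 µM and 63, 130 and 131 at 1500 µM. FBXO5.9 had 9, 39 and 25 counts at 0 µM and 12, 53 and 0 at 1500 µM. FBXO5.4 had 3, 76 and 0 against 0, 28 and 0, and FBXO5.8 had 0, 29 and 27 against 0, 25 and 0. FBXO5.6, which failed the filter, had 1, 0 and 0 against 0, 0 and 53, and FBXO5.1 was at 0 in all 6. The libraries of replicate 1 and replicate 3 held few counts for most of these guides at either dose. The median over tested guides was -0.94 ± 0.49 (log2, SE, n = 3 pairs), with an adjusted p of 0.624 in limma. The summed log2 fold change had the other sign, 0.36 ± 0.63 (edgeR adjusted p = 0.942), and was -1.72 when only guides past the filter were summed.

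The gene lists below describe where the medians of related genes lay, beside all 1111 genes with a median, of which 517 were above 0 and 592 below, with an overall median of -0.02. Over all tested guides, 11.5% were higher and 13.2% lower in all 3 pairs. No member of any list passed the median test. The lists share some genes, so they are not independent groups. UBA3 and NAE1 are in the NEDD8 and E1 lists, and RFWD3 is in the Fanconi and RAD6-RAD18 lists. FBXO5 and FBXO43 are in the FBXO list and that of the anaphase-promoting complex. The level of a gene's guides ran with the direction: of the 278 genes with the lowest mean level 53.2% were above 0, and of the 278 with the highest 37.8%. The part of this level difference in the lists' medians was not tested.

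In the NEDD8 list, medians were above 0 for all 7 measured genes, with a list median of 0.19. It holds NEDD8, the apparatus that attaches NEDD8 to cullins, which switches on cullin ligases, and the NEDD8 protease SENP8. NEDD8 itself was at 0.59 ± 0.27, the E1 subunits UBA3 and NAE1 at 0.45 ± 0.35 and 0.19 ± 0.38, and the E2 enzyme UBE2M at 0.22 ± 0.20 (SE, n = 3 pairs). Of the 54 tested guides in this list, 20.4% were higher and 1.85% lower in all 3 pairs, and 1 gene had an unadjusted p under 0.05. The list's median untreated level was 26.9 CPM, against 64.9 over all genes. Its median was 0.01, 0.46 and 0.06 in pairs 1, 2 and 3, so that it came mainly from replicate 2. The list of cullins with their RING partners RBX1 and RNF7, the exchange factors CAND1 and CAND2, SKP1 and the elongins TCEB1 and TCEB2 had 10 genes higher and 5 lower, with a median of 0.12. Cullins themselves went both ways, with CUL2 at 0.46 ± 0.52 and CUL4B at -0.31 ± 0.20. The proteasome's regulatory particle had 14 genes higher and 4 lower (median 0.15), with PSMC3 at 0.79 ± 0.37 and PSMD6 at 0.52 ± 0.21. Its core particle had 10 higher and 5 lower (median 0.11), from PSMA5 at 0.66 ± 0.44 to PSMA4 at -0.80 ± 0.22. E1 enzymes had 7 higher and 3 lower (median 0.17), with UBA7, the E1 enzyme of ISG15, at 0.40 ± 0.21 and UBA1, the main ubiquitin E1 enzyme, at -0.55 ± 0.37. Both proteasome lists lay at low levels too, at 26.7 and 30.3 CPM for core and regulator at 0 µM. The E1 and cullin lists were at 31.2 and 40.7 CPM.

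All 6 genes of the Fanconi anaemia and crosslink repair list were above 0 (median 0.27), and 4 were higher in every pair, although none had an unadjusted p under 0.05. UBE2T, the E2 enzyme for FANCD2, was at 0.39 ± 0.24 with 1.13, 0.03 and 0.02, RFWD3 at 0.37 ± 0.20, the nuclease scaffold SLX4 at 0.27 ± 0.18 and FANCF at 0.26 ± 0.17. Of its 55 guides, 20% were higher and 3.64% lower in all 3 pairs. The list's median untreated level was 39.6 CPM, against 64.9 over all genes. In the RAD6-RAD18 list of damage tolerance genes, 7 were higher and 3 lower (median 0.20), at a median untreated level of 52.5 CPM. RAD18 was at 0.11 ± 0.17 and changed sign between pairs, with 0.48, -0.35 and 0.21, and UBE2B, the close paralog of UBE2A, was at 0.30 ± 0.22 with 0.48, -0.38 and 0.79. HLTF, a ligase that extends chains on PCNA, was at 0.32 ± 0.15, and UBE2N at 1.00 ± 0.51 from 5 guides, of which replicate 3 gave 2.82. The 4 measured genes of homologous recombination were split, 2 higher and 2 lower, with BRCA1 at 0.05 ± 0.27 and BRCA2 at -0.04 ± 0.25. RNF40, which acts with UBE2A on histone H2B, was at 0.76 ± 0.30 with 1.62, 0.65 and 0.00.

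The list of TRAF and BIRC ligases of NF-kB signalling had 6 genes lower and 2 higher, with a median of -0.25. Among its members, TRAF2, TRAF3, BIRC2 and BIRC3 form the complex that degrades the kinase NIK and so restrains non-canonical signalling. Besides TRAF3 at -0.66 ± 0.17, TRAF2 was at -0.72 ± 0.23 and BIRC2 at -0.52 ± 0.16 (log2, SE, n = 3 pairs). TRAF3, TRAF2 and BIRC2 were lower in every pair, while BIRC3 was at 0.23 ± 0.16. In limma, TRAF3, TRAF2 and BIRC2 had unadjusted p-values of 0.00268, 0.00768 and 0.00762 and adjusted ones of 0.522, 0.581 and 0.581. Of all genes with a median, 4.41% were lower at an unadjusted p under 0.05. The pairs differed: TRAF2 had -1.53, -0.28 and -0.35, and BIRC2 had -0.92, -0.59 and -0.04. In the list of canonical NF-kB regulators and the linear ubiquitin ligase, 12 of 13 genes were below 0 (median -0.14), and of their guides 20.8% were lower and 7.2% higher in all 3 pairs. SHARPIN, a subunit of the linear ubiquitin ligase, was at -0.42 ± 0.14, TNIP1 at -0.33 ± 0.17 and RBCK1 at -0.22 ± 0.15. Only SHARPIN had an unadjusted p under 0.05. The median of the list was -0.01, -0.35 and -0.05 in the pairs, and replicate 2 carried most of it. At 0 µM the TRAF and BIRC list had a median level of 73.5 CPM and the canonical list 77.8, above the 64.9 over all genes.

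The coactivator list, with SAGA, ATAC and TFIID subunits, had 18 genes lower and 8 higher (median -0.08). TADA3 at -0.73 ± 0.23 joined TADA2B and USP22, and all 3 were lower in every pair, whereas MBIP, a subunit of ATAC, was at 0.41 ± 0.16. The deubiquitinase partner ATXN7L3 was at -0.05 ± 0.20. Polycomb genes had 8 lower and 4 higher (median -0.11), with PCGF6 at -0.34 ± 0.16, RING1 at -0.27 ± 0.14 and PHC1 at 0.39 ± 0.19 beside EED. Mediator had 10 higher and 5 lower (median 0.07). MED31, MED6 and MED7, the last at 0.46 ± 0.21, contrasted with MED8 at -0.55 ± 0.21. At 0 µM the Polycomb list had a median level of 84.7 CPM, above the 64.9 over all genes. The coactivator and Mediator lists were below it, at 53.5 and 39.9 CPM.

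Several ligase families had more genes lower than higher. UBR ligases, which recognise N-terminal degrons, had 5 lower and 1 higher (median -0.19), with UBR4 at -0.64 ± 0.26 and UBR2 at -0.39 ± 0.15. Membrane-bound MARCH ligases had 9 lower and 2 higher (median -0.13), led by MARCH3 at -0.58 ± 0.22 and MARCH1 at -0.55 ± 0.20. Substrate receptors of the SOCS, SPSB, WSB and VHL type had 11 lower and 4 higher (median -0.13), and 23.6% of their guides were lower and 8.57% higher in all 3 pairs. WSB2 was at -0.44 ± 0.16, SOCS3 at -0.36 ± 0.21 and VHL, the receptor for hypoxia-inducible factors, at -0.32 ± 0.36. The large RNF and TRIM families were close to the whole library, with 38 higher and 42 lower and with 29 higher and 42 lower. F-box proteins of the FBXO class had 24 lower and 14 higher (median -0.11). Median untreated levels were 74.0 CPM for the FBXO list and 81.0 for the SOCS, SPSB, WSB and VHL list, above the 64.9 over all genes. Those of the UBR and MARCH lists were below it, at 56.9 and 62.3 CPM. The list of the anaphase-promoting complex holds its subunits, its activators, its E2 enzymes UBE2C and UBE2S and its inhibitors FBXO5 and FBXO43. It had 9 genes higher and 10 lower (median -0.01), with the subunit ANAPC1 at 0.42 ± 0.22 and FBXO43 at 0.47 ± 0.22. The CTLH ligase went both ways within a single complex, with GID8 at 0.46 ± 0.23 and WDR26 at 0.31 ± 0.16 against MKLN1 at -0.41 ± 0.15.

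The evenness of the libraries was compared over the 3 pairs by exact two-sided sign flips, which cannot give a p below 0.25. The Gini index, which is 0 when all guides are equally abundant, was 0.689, 0.666 and 0.617 at 0 µM and 0.653, 0.695 and 0.605 at 1500 µM (exact p = 0.75). It was lower in 2 pairs and higher in replicate 2. Without UBE2A.7 it was lower at 1500 µM in all 3 pairs, by a mean difference of -0.042 ± 0.014 (SD, n = 3 pairs, exact p = 0.25). Guides at 0 numbered 1402, 1237 and 1120 at 0 µM and 1540, 1282 and 1188 at 1500 µM, so that each treated library lacked more guides than its untreated partner although it had more counts (exact p = 0.25). The 100 most abundant guides held 16.2%, 12.1% and 9.98% of counts at 0 µM and 18.3%, 27.1% and 13.7% at 1500 µM (exact p = 0.25). Without UBE2A.7 the share was 16.1%, 11.1% and 9.72% against 13.1%, 10.5% and 9.24%, lower in every treated library.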

How the data were processed

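A single table of raw guide counts was deposited by the authors, for 9 libraries, with guide and gene names. Per the submitters' processing notes, cutadapt 1.18 and MAGeCK 0.5.8 were used, with hg19 as the build, with settings not given in the sources used here. Of 1117 gene names, 1076 were current symbols in RefSeq's GRCh38.p14 table, 40 were found under an older symbol and 1 was not found. Guide sequences were not used here.

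Guides were tested with edgeR 4.0.16 (TMM factors, robust quasi-likelihood, replicate number as a block), and so were counts summed over a gene's 10 guides. Each edgeR SE was obtained by dividing the size of the log2 fold change by the square root of its F statistic. CPM used the same TMM factors. A gene's median guide ratio was the median over its tested guides (at least 3) of log2(CPM + 1) at 1500 minus 0 µM, tested over the 3 pairs with limma 3.58.1 (trend, robust). Its SE was the size of the mean over pairs divided by limma's moderated t. Benjamini-Hochberg adjustment was made over all guides or genes tested, with a threshold of 0.05. DESeq2 1.42.0 and limma-voom were alternatives. Deviations of same-numbered libraries from the dose means correlated at 0.71, 0.78 and 0.71 across guides, so the replicate number from the titles was taken to pair the libraries. Those of differently numbered libraries correlated at -0.45 to -0.27. Once the dose mean is subtracted these must be negative on balance, so they add nothing to the pairing. The code was tested on simulated data.

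By rule the text names, per direction, the 10 guides and 10 genes of lowest p where none passed. The rule also names the genes past the test on sums, the 10 guides most abundant at 1500 µM and fixed genes of interest. It adds up to 4 genes per list with the medians farthest from 0 in either direction. UBE2A.1, UBE2A.5, UBE2A.6, CAND2.6, DCUN1D1, EP300, UBE2B, MBIP, MED7, ATXN7L3, the guides called by DESeq2 or voom and the further single guides of named genes were chosen after their values were seen. Some genes that the rule names are not reported here. Members and lists were chosen with earlier results of these data known. R 4.3.3 was used.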

Additional observations from a re-analysis of the deposited data

How the results depend on the processing

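With the most abundant guide, UBE2A.7, left out, the mean paired difference of the Gini index was -0.042, that of the top guide's share 0.625 percentage points and that of the 100 most abundant guides' share -1.37 points. The count of called guides was 6 in DESeq2 with the replicate block and 6 in voom with it, and it was 0 in edgeR under the other settings, among them the fit without the replicate block, all 9 libraries, no count filter, a minimum of 50 counts and each pair left out. Of 1117 genes, the count called on sums was 2 with DESeq2 size factors and 3 in DESeq2 with the replicate block. It was 0 without the replicate block and 0 without UBE2A.7. With a pair left out it lay between 0 and 11. It was 11 without replicate 1 (6 higher and 5 lower), 0 without replicate 2 and 2 without replicate 3 (both higher). On median ratios it was 1 with the mean of guides. The sign turned for FBXO5 on sums (-0.033 without the replicate block and -1.72 with filtered guides), for the median of HUWE1 (-0.88 at 50 counts), for that of UBE2A (-0.45 without the replicate block) and for that of RAD18 (-0.057 at 50 counts, -0.21 without the replicate block, and -0.054 to 0.34 with a pair left out). It also turned with a pair left out for RAD18 on sums (-0.053 to 0.076) and for NFE2L2.4 (-1.98 to 1.05). The cause was not tested.

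Depth limits what scarce guides can show: a count of 0 allows up to 3 counts, and ratios of guides near 10 counts vary widely between pairs. DESeq2 without the block and DESeq2 with a pair left out were added after seeing the data. Without the block, DESeq2 called 0 guides, with 61 at an unadjusted p under 0.05, and on sums 1 gene, UBE2A. The count of 0 genes on sums without the block is edgeR's.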

Other observations

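Some further gene groups were not described above. In the SUMO and UFM1 list 14 genes had medians above 0 and 8 below, with PIAS1, a SUMO ligase, at 0.43 ± 0.18 (log2, SE, n = 3 pairs), UFC1, the E2 enzyme of UFM1, at 0.32 ± 0.32 and SENP3 at -0.37 ± 0.21. UFC1 had 0.31, -0.37 and 1.04 in the pairs. Among Wnt regulators, with 7 genes above 0 and 5 below, the receptor FZD4 was at -0.43 ± 0.16 with -0.46, -0.35 and -0.47, and the tankyrase TNKS2 at 0.25 ± 0.15. Of mitotic genes, the kinases TTK and PLK1 were at -0.58 ± 0.33 and 0.49 ± 0.50, each with its value coming from replicate 1. None of these genes passed the limma test.

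MSL2, a ligase of the MSL histone acetyltransferase complex chosen after its values were seen, was the only gene with 6 guides lower in every pair. Its median was small, at -0.15 ± 0.12, with -0.19, -0.11 and -0.13 in the pairs (limma adjusted p = 0.803).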
